A study of Mus musculus with 16 samples.

Results

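The response of wild-type (WT) mouse quadriceps to dexamethasone was read from 8 of the 16 arrays of the study. The arrays were chosen by their titles and not by any measured value: 4 came from WT animals given dexamethasone and 4 from WT animals given vehicle. Dexamethasone, a synthetic agonist of the glucocorticoid receptor, was injected once into the peritoneum at 2 mg/kg, the control group received an equal volume of vehicle, and the muscle was taken 8 h later. The remaining 8 arrays came from mice labelled KLF15 KO, given vehicle or dexamethasone in the same way; they shared the estimate of the spread and are set beside the WT values near the end. The labels name no strain, age, sex, knockout allele or transgene. The series describes 4 animals per group, and each animal contributed 1 single-colour array of total RNA.

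Glucocorticoids bind a receptor held in the cytoplasm by chaperones, and the bound receptor moves to the nucleus and acts as a transcription factor on palindromic sites in promoters and enhancers. In skeletal muscle they are known to favour protein breakdown, release of amino acids, a shift from glucose to fatty acid use and reduced insulin action. In immune and stromal cells they are known to restrain interferon, chemokine and antigen-presentation programmes.

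Each level below is the log2 signal of a probe relative to the 75th percentile of its array, and a change is the mean of the 4 dexamethasone arrays minus the mean of the 4 vehicle arrays, with its standard error (SE). The values were those of skeletal muscle: the 7 structural markers Acta1, Ckm, Myh4, Tnnt3, Tnni2, Mylpf and Des lay above background on all 8 WT arrays and at or above the 98.6th percentile of all features. The myogenic factor Myod1 was also above background on all 8 arrays. The signal at the 75th percentile ranged from 554 to 1169 units over the 16 arrays, and 66.3% to 78.4% of spots on the WT arrays were well above background. Correlations between arrays of a group were 0.946 to 0.990 for vehicle and 0.952 to 0.977 for dexamethasone. The median SD of a feature was 0.21 in the vehicle group and 0.30 in the dexamethasone group. With 4 arrays in each group, precision is limited by that number.

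Some arrays stood apart from their group. The largest axis of variation among the WT arrays (principal component 1, 40.6% of variance) did not separate the groups. On this axis vehicle replicates 1 to 4 lay at -75.1, -50.0, 72.0 and -56.5. The dexamethasone replicates lay at 110.1, -40.9, 37.7 and 2.8 in the same order. On component 2 (24.8%) the vehicle values, 11.3 to 76.4, all lay above the dexamethasone values, -81.6 to 8.7. Dexamethasone replicate 3 carried high signal of neutrophil and marrow granule genes: the median of 16 measured members lay 6.83 log2 units above the vehicle mean there, against 0.96, 0.33 and -0.92 on replicates 1, 2 and 4 and -0.31 to 0.17 on the vehicle arrays. The erythroid median was 2.34 on the same array and -0.45 to 0.59 on the other 3. Slow-fibre contractile genes varied inside both groups, with array medians of -1.03 to 1.24 under vehicle and 0.72 to 1.56 under dexamethasone. Dexamethasone replicate 3 was also the only array of slide 1 and the only one of the 16 arrays of the second scan day. Dexamethasone replicate 1, alone on slide 2 among the 16 arrays, was marked for evaluation in its quality field. Of the slides, only slide 5 held both WT groups, with vehicle replicate 4 and dexamethasone replicate 2. On the other slides treatment and slide cannot be told apart from the WT arrays alone. The difference between that pair had the sign of the fitted change in 1268 of 1272 features called higher and 1411 of 1422 called lower. The same arrays were part of the fit, and the groups did not overlap in 2486 of the 2694 called features. In those the sign of any such pair is fixed, so these counts are no separate evidence.

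Of 25189 features tested, 1272 (5.05%) were higher and 1422 (5.65%) were lower with dexamethasone at a Benjamini-Hochberg adjusted p under 0.05 (limma, two-sided). Among these 2694 features, 898 of the higher and 912 of the lower carried a gene symbol. Changes of at least 2-fold numbered 297 higher and 440 lower, of at least 4-fold 52 and 62, and of at least 8-fold 16 and 4. The 4 dexamethasone values lay wholly above or below the 4 vehicle values in 4294 features (17.0%), among them 2486 of the 2694 called. The median change of all features was -0.08. When each array was scaled to its median in place of its 75th percentile, the median of all features moved to 0.16 and the calls became 1800 higher and 395 lower, so that the share of higher calls went from 47.2% to 82.0%. All 1272 higher features kept their sign under that scaling and 1240 of them passed, whereas 1421 of the 1422 lower features kept their sign and 395 passed. With normexp background correction 117 of the 1422 lower features turned positive, none of them passing, and 709 passed as lower. Each change below is to be read against the median of all features, and each list count against 5.05% of features called higher and 5.65% called lower. With slide as a fixed block, which takes the arrays alone on a slide out of the WT contrast, 375 features were higher and 392 lower. Leaving out vehicle replicate 2 gave 800 higher and 832 lower.

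Among the features called, the median change was similar on the 4 dexamethasone arrays. The features were called from these same arrays, which favours similar values, so this is no separate evidence that the arrays agree. Over 1270 features called higher and measured on every array, the median rise above the vehicle mean was 0.68, 0.68, 0.61 and 0.61 on replicates 1 to 4. Over those called lower, the corresponding medians were -0.83, -0.76, -0.75 and -0.74. Replicate 2 held the largest value of the higher features in 36.6% of cases and replicate 3 in 11.4%.

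**Figure D1:**
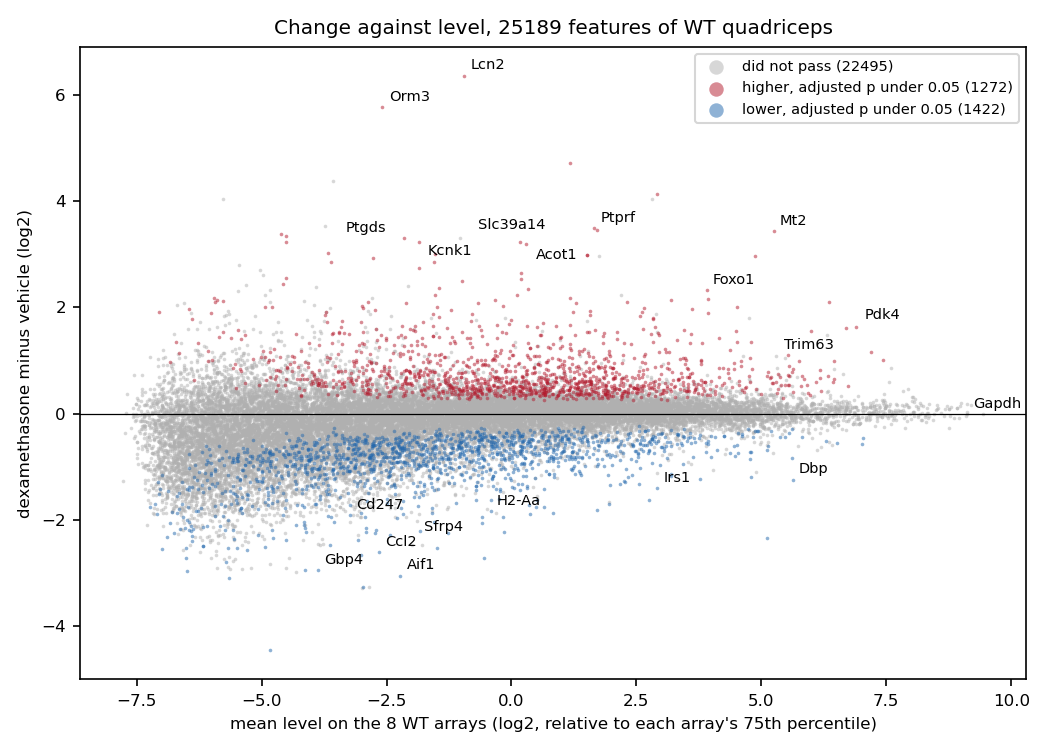
Change with dexamethasone (log2, 4 arrays minus 4 arrays) against the mean level on the 8 WT arrays (log2, relative to each array's 75th percentile) for 25189 features. Red points passed as higher (1272), blue points as lower (1422) and grey points did not pass; Lcn2 lies highest, at 6.35, and most features lie near 0.

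The most reproducible rises, ranked by the moderated t among genes above background on all 8 arrays, included several with very small spread. Prom1, which encodes the membrane glycoprotein prominin 1, read -3.05, -3.33, -3.15 and -3.07 under vehicle and -1.24, -1.12, -0.92 and -0.97 under dexamethasone. It rose 4.25-fold (log2 change 2.09, SE 0.10, adjusted p 9.5e-08), with no overlap of the groups, and its other probe gave 2.20. Map3k6, a kinase of the stress-activated MAP kinase cascade, read 2.03, 2.05, 2.04 and 2.37 under vehicle and 4.34, 4.31, 4.07 and 4.31 under dexamethasone (log2 change 2.13, SE 0.10, adjusted p 1.4e-07). Every treated array lay at least 1.7 log2 units above every vehicle array for Map3k6. Ptprf, a receptor-type tyrosine phosphatase known to act on the insulin receptor, read -0.12, -0.16, -0.23 and 0.15 under vehicle and 3.63, 3.09, 3.52 and 3.39 under dexamethasone (3.49, SE 0.20, adjusted p 4e-07). The rise was seen with all 3 Ptprf probes, the other pair giving 1.85 and 3.52.

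Npc1, the lysosomal cholesterol transporter, rose 2.85-fold (1.51, SE 0.12). B4galt1, a galactosyltransferase of the Golgi, rose 2.82-fold (1.50, SE 0.11); of its other probes, one gave 1.43 and one -0.30. Cdkal1, which modifies a transfer RNA, moved from 3.04 to 3.26 under vehicle to 4.40 to 4.52 under dexamethasone, a 2.50-fold rise with the groups far apart (1.32, SE 0.10). Apbb3, an adaptor that binds the amyloid precursor protein, rose 3.76-fold (1.91, SE 0.14). The largest of these changes without an assigned function was 6430548M08Rik, at 10.9-fold (3.44, SE 0.24), and its other probes gave 2.81 and 1.72.

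**Figure D2:**
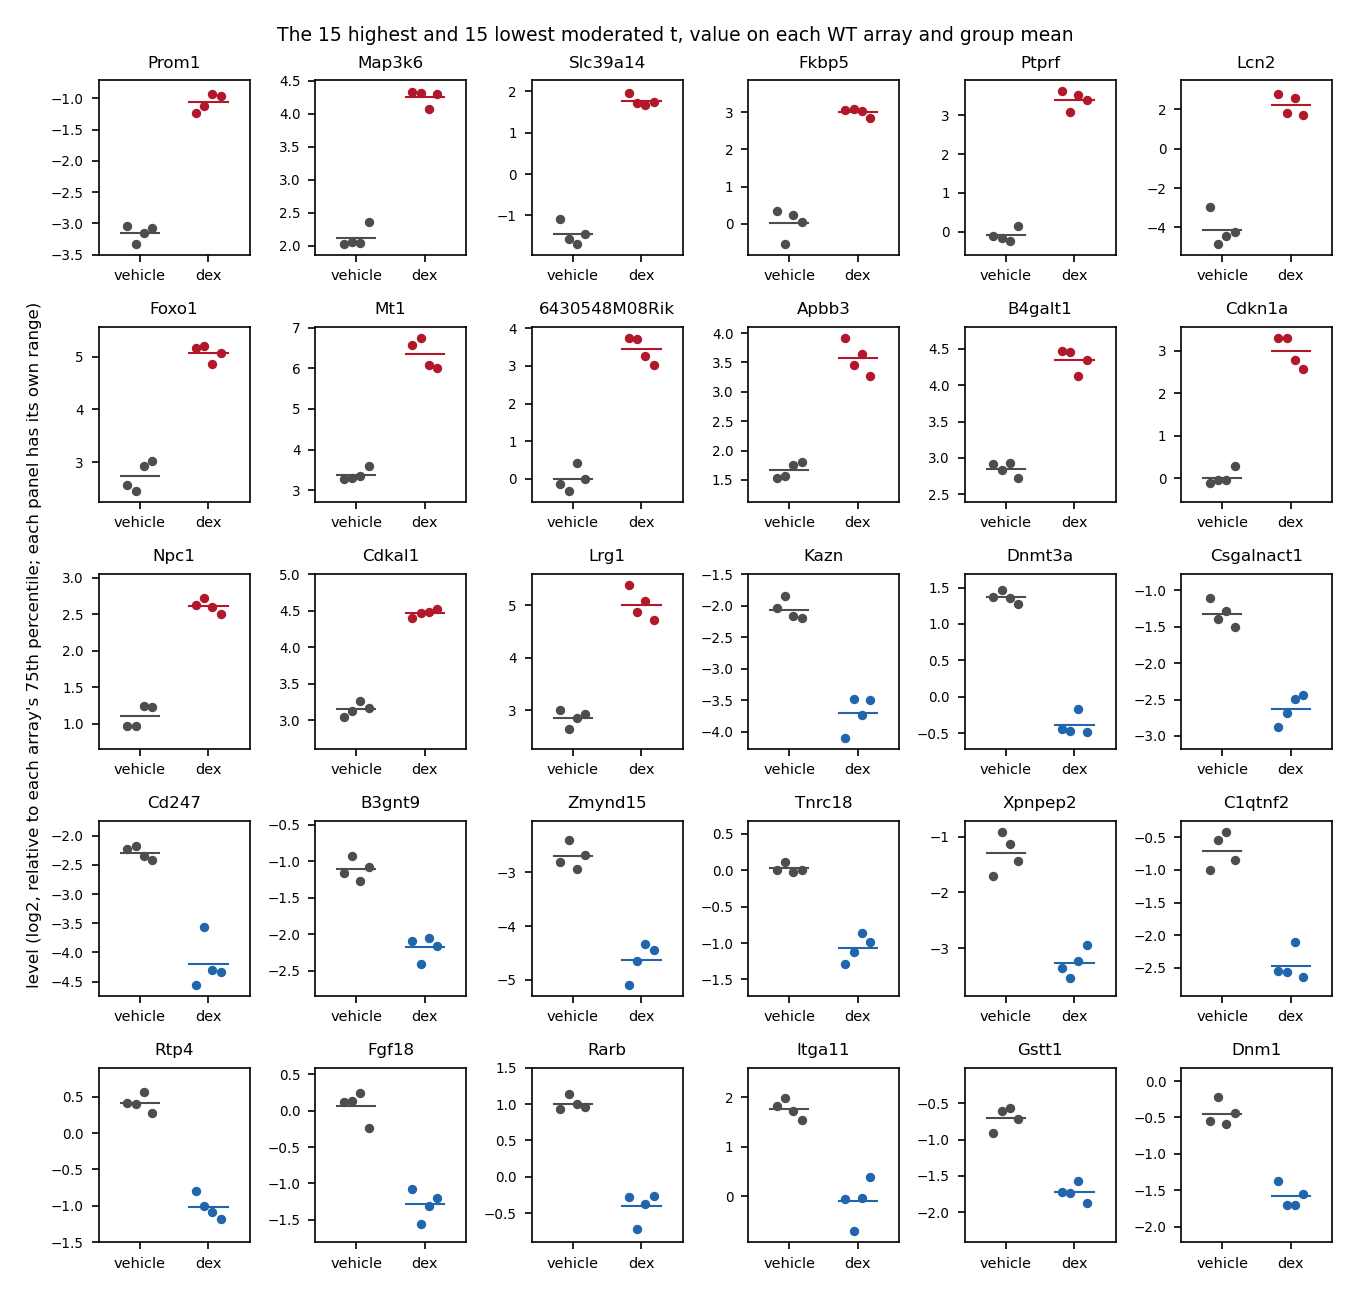
Level on each of the 8 WT arrays (log2, relative to the array's 75th percentile) of the 15 genes with the highest and the 15 with the lowest moderated t. Points are single arrays, lines are group means of 4 arrays, and the vertical range differs between panels; in every panel the vehicle and dexamethasone points do not overlap, by the rule that chose the genes.

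Among the receptor and its partners, the receptor gene itself did not pass the test. Nr3c1, which encodes the glucocorticoid receptor, read 2.67 to 3.12 under vehicle and 2.57 to 3.02 under dexamethasone (-0.05, SE 0.15, adjusted p 0.89), and its other probes gave 0.17, -0.42 and -0.06. Hsd11b1, the enzyme that regenerates active glucocorticoid in tissue, changed by -0.32 (SE 0.17, adjusted p 0.29). Of 13 measured genes of the receptor and its chaperones only Fkbp5 passed, 1 of 13 against 5.05% of all features called higher. Fkbp5, the co-chaperone that lowers receptor affinity in a feedback loop, read 0.35, -0.53, 0.23 and 0.05 under vehicle and 3.06, 3.09, 3.03 and 2.84 under dexamethasone. The rise was 7.90-fold (2.98, SE 0.16, adjusted p 3.6e-07); its other probes gave 2.41 and 0.29.

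Of 25 genes listed as glucocorticoid-induced regulators, 11 rose and 1 fell (9 and 0 with slide as a fixed block), and the list median was 0.56. Cdkn1a, the cyclin-dependent kinase inhibitor p21, rose from -0.12, -0.05, -0.05 and 0.29 to 3.30, 3.29, 2.78 and 2.58, a 7.85-fold change (2.97, SE 0.22). Rhob, a small GTPase, rose 2.35-fold (1.23, SE 0.18), Errfi1, a feedback inhibitor of the epidermal growth factor receptor, 1.77-fold (0.82, SE 0.15), and Tgm2, tissue transglutaminase, 1.80-fold (0.85, SE 0.11). Sgk1, a serum- and glucocorticoid-regulated kinase, read 6.02 to 6.27 under vehicle and 6.99, 6.74 and 6.73 on the 3 treated arrays with a usable spot (0.64, SE 0.13, adjusted p 0.0072). Klf15, a zinc-finger factor of amino acid and lipid metabolism, read 3.78, 3.25, 2.80 and 3.36 under vehicle and 4.10, 4.77, 3.94 and 4.40 under dexamethasone, a 2.01-fold rise with a narrow gap between the groups (1.01, SE 0.26, adjusted p 0.024). Tnfaip3, an ubiquitin-editing inhibitor of NF-kB, fell by 0.67 (SE 0.15, adjusted p 0.011).

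Several genes often used as glucocorticoid targets did not pass at this time. Tsc22d3, the leucine zipper protein GILZ, read 4.72 to 5.05 under vehicle and 4.75 to 5.28 under dexamethasone (0.29, SE 0.13, adjusted p 0.19). Per1 gave 0.28 (SE 0.14, adjusted p 0.23), Klf9 0.41 (SE 0.16, adjusted p 0.12) and Dusp1, the MAP kinase phosphatase, -0.11 (SE 0.22, adjusted p 0.81). The groups overlapped for all 4. These arrays hold a single time, so values at other times after the injection were not measured here.

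The promoters of the responding genes were searched for the palindrome bound by receptor dimers, GNACA and TGTNC with any 3 bases between them, where N is any base; it reads alike on both strands. A RefSeq window (assembly GRCm38.p6) from 250 bases before to 50 bases after a start was found for 12110 of 15175 named features. The letters were present in at least 1 window of 59 of these 12110 genes (0.487%), of 12 of 738 that were higher (1.63%) and of 1 of 689 that were lower (0.145%). Among the genes at least 2-fold higher it was 10 of 171 (5.85%). A match is a description of the sequence and not a measured binding site. The following stretches, each on the gene's strand 5′ to 3′ with the palindrome in capitals, were chosen by this match and show its letters and position before genes of metal binding, protease inhibition, kinase signalling, actin binding, proteolysis and ion transport.
Mt1: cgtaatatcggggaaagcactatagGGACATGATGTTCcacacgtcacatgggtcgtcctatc
Serpina3n: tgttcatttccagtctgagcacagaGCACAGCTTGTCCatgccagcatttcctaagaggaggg
Map3k6: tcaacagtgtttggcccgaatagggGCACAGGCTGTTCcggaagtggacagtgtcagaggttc
Fam107a: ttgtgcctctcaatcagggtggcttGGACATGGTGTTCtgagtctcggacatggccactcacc
Trim63: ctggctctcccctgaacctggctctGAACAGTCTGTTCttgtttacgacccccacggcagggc
Sgk1: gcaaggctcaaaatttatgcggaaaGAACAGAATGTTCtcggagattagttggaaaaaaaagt
The stretch of Mt1 is chr8:94178970-94179032 (+), that of Serpina3n chr12:104406605-104406667 (+) and that of Map3k6 chr4:133240612-133240674 (+). Those of Fam107a, Trim63 and Sgk1 are chr14:8309860-8309922 (-), chr4:134314887-134314949 (+) and chr10:21993677-21993739 (+). The palindrome ends 82 bases before the start in Mt1, 66 in Serpina3n, 169 in Map3k6, 106 in Fam107a, 196 in Trim63 and 176 in Sgk1. The 6 genes had log2 changes of 2.97, 2.36, 2.13, 2.13, 1.61 and 0.64 in the same order. Car14, Tinagl1 and Slc10a6, which rose by 1.33, 1.17 and 0.60, also held the letters before their start; the other Tinagl1 probe gave 0.39. In Gnmt, Lrrc52 and Map7d2, which rose by 2.35, 1.85 and 1.15, they lay after it. Rbms3 was the gene called lower that held them (-0.61).

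Metal-handling genes gave some of the largest changes. Slc39a14, a zinc and iron importer of the plasma membrane, read -1.09, -1.58, -1.69 and -1.46 under vehicle and 1.97, 1.73, 1.68 and 1.74 under dexamethasone (3.23, SE 0.17, adjusted p 3.3e-07). The metallothioneins, small metal-binding proteins, went from 3.28 to 3.60 to 6.01 to 6.75 for Mt1 and from 3.18 to 4.00 to 6.24 to 7.67 for Mt2. Both passed (Mt1 2.97, SE 0.20; Mt2 3.43, SE 0.31), with no overlap; their sequences are close and their probes may share signal. The other 18 measured metallothionein and zinc transporter genes did not pass, and the list median was -0.08, which turned to 0.16 with median scaling.

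Acute-phase proteins are secreted plasma proteins best known from liver. Of 24 measured, 7 rose and 0 fell (4 higher with slide as a fixed block), with a list median of 0.20. Lcn2, the siderophore-binding lipocalin 2, read -2.96, -4.84, -4.44 and -4.26 under vehicle and 2.80, 1.84, 2.56 and 1.69 under dexamethasone, a rise of 81.8-fold (6.35, SE 0.37, adjusted p 5.5e-07). Lcn2 is also a member of the neutrophil list, whose median reached 6.83 on replicate 3 and -0.92 on replicate 4; the corresponding Lcn2 levels were 2.56 and 1.69. Lrg1, a leucine-rich glycoprotein, rose 4.45-fold (2.15, SE 0.17), Serpina3n, a serine protease inhibitor, 5.13-fold (2.36, SE 0.29), and Hp, haptoglobin, 3.90-fold (1.96, SE 0.38). The orosomucoid genes Orm1, Orm2 and Orm3 rose 4.01-, 3.85- and 54.4-fold; they are near-identical copies and cannot be told apart with certainty. For Orm3 the values were -5.68, -4.93, -5.77 and -5.47 under vehicle and 1.50, -0.22, 0.45 and -0.52 under dexamethasone. Alb, serum albumin, was not well above background on any vehicle array but was on all 4 treated arrays, and was at least 2.92-fold higher (adjusted p 0.0061). It was the 1 gene of 11 epithelial and liver markers that passed; their list median was -0.52, and the part of RNA from other tissue in these values was not tested.

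Of 21 genes listed as muscle ubiquitin ligases, Foxo factors and their regulators, Foxo1, Trim63 and Mstn rose and Foxo6 fell, with a median of 0.23. Foxo1, the forkhead factor that drives atrophy genes, read 2.57, 2.46, 2.93 and 3.02 under vehicle and 5.16, 5.21, 4.86 and 5.06 under dexamethasone (2.33, SE 0.14, adjusted p 9.3e-07). Trim63, the ubiquitin ligase MuRF1, rose from 5.81, 5.76, 5.97 and 6.02 to 7.09, 8.17, 7.34 and 7.42 (1.61, SE 0.18, adjusted p 8.7e-05). Fbxo32, the ligase atrogin-1, read 3.79 to 4.32 under vehicle and 4.15, 6.55, 4.88 and 5.12 under dexamethasone. Its change of 1.09 (SE 0.36) missed the threshold (adjusted p 0.072), and replicate 1 lay inside the vehicle range. Mstn, the muscle growth inhibitor myostatin, rose 1.90-fold (0.93, SE 0.17, adjusted p 0.004), from 2.78 to 3.40 to 3.82 to 4.15. Foxo6 fell by 1.29 (SE 0.21, adjusted p 0.0016).

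Of 32 autophagy genes, 3 rose and none fell, against 5.05% and 5.65% of all features, and with slide as a fixed block none of the 32 passed. Bnip3 and Bnip3l, mitophagy receptors, rose 1.51- and 1.34-fold (Bnip3 adjusted p 0.0039, Bnip3l 0.049), and Gabarapl1, an autophagosome protein, 1.51-fold (adjusted p 0.024). None of 31 constitutive proteasome subunits passed, and their changes ran from -0.06 to 0.29 with a median of 0.10. The smallest p of that list was that of Psmb2 (0.26, SE 0.10, adjusted p 0.13). None of 42 ribosomal protein genes passed either, with a range of -0.23 to 0.30 and a median of 0.05. Of 29 ribosome biogenesis genes 2 rose and 1 fell, against 5.05% and 5.65% of all features. Rrs1 (0.62, SE 0.09) and Polr1e (0.30, SE 0.09) rose, and Nolc1 fell by 0.42 (SE 0.11), although its other probe gave 0.20.

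In the insulin and mTOR pathway, 6 of 37 genes rose and 3 fell, against 5.05% and 5.65% of all features; with slide as a fixed block 3 were higher and 1 lower. Pik3r1, the regulatory subunit of phosphoinositide 3-kinase, read 0.66, 0.33, 0.54 and 0.61 under vehicle and 2.55, 1.85, 1.81 and 1.80 under dexamethasone (1.47, SE 0.19, adjusted p 0.00034), and all 3 of its other probes were positive (1.78, 1.88 and 1.05). Irs1, the docking protein of the insulin receptor, read 3.61, 4.01, 3.52 and 3.30 under vehicle and 2.49, 1.42, 2.44 and 2.49 under dexamethasone. It fell by 1.40 (SE 0.22, adjusted p 0.0012), 2.64-fold lower, and its other probe gave the same value. Sesn1, a sestrin that restrains mTORC1, rose from 2.93 to 3.11 to 4.51 to 5.71 (1.88, SE 0.24), while its relative Sesn2 fell by 0.69 (SE 0.19). Eif4ebp1, the repressor of cap-dependent translation, rose 1.86-fold (0.90, SE 0.18). Pik3cb and Mtor rose by 0.47 and 0.38. For Insr, the insulin receptor, the brightest probe rose by 0.49, whereas its other probe gave -0.29. Ddit4, the mTORC1 inhibitor REDD1, did not pass: 4.35, 4.80, 5.24 and 5.43 under vehicle against 6.28, 7.06, 5.38 and 5.28 (1.04, SE 0.38, adjusted p 0.10). Igf1 gave -0.80 (SE 0.26, adjusted p 0.071) with no overlap of the groups.

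Of 23 cell-cycle inhibitors, p53 targets and Gadd45 genes, 7 rose and 1 fell (4 and 0 with slide as a fixed block). Besides Cdkn1a and Sesn1, these were Btg2, an antiproliferative factor (1.23, SE 0.21; other probes 0.34 and 0.42), Trp53inp1 (0.95, SE 0.14), Bbc3, the apoptosis inducer PUMA (0.57, SE 0.09), Ccng2, cyclin G2 (0.50, SE 0.10), and Gadd45a (0.51, SE 0.14). Gadd45g was the member that fell (-0.55, SE 0.15), and its groups overlapped. Of 27 proliferation genes 2 rose and 1 fell, against 5.05% and 5.65% of all features (none with slide as a fixed block). Rrm2, a ribonucleotide reductase subunit, was 4.29-fold higher but with a wide error (2.10, SE 0.62, adjusted p 0.046) and its highest value on dexamethasone replicate 3. The proliferation list had a median of 1.21 on that array against -0.15 to 0.03 on the other treated arrays, and the part of marrow-type cells in it was not tested.

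Of 30 C/EBP and immediate-early factors, 8 rose and 1 fell (7 and 0 with slide as a fixed block), with a median of 0.14. Maff, a small Maf bZIP protein, rose 3.33-fold (1.73, SE 0.23) and its relative Mafk 1.82-fold (0.87, SE 0.12). Cebpb read 1.06, 1.17, 1.66 and 1.54 under vehicle and 2.89, 2.69, 2.39 and 2.21 under dexamethasone (1.19, SE 0.21, adjusted p 0.0028). Cebpd rose less regularly, from 5.13 to 5.41 to 6.13, 7.25, 5.38 and 6.21; the groups overlapped and the adjusted p was 0.037 (0.99, SE 0.28). Jun and Ier3 rose by 0.88 and 0.78, and Ier5 fell by 0.70. The brightest Fosl2 probe rose by 0.78, whereas its other probe gave -0.37. Klf10, a TGF-beta-inducible repressor, gave 1.54 (SE 0.36, adjusted p 0.015), with dexamethasone replicate 1 at 1.67 inside the vehicle range of 1.02 to 1.71.

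Of 48 genes of glucose uptake, glycolysis and glycogen, 7 rose and none fell (2 higher with slide as a fixed block), with a list median of 0.10. Pdk4, the kinase that switches off pyruvate dehydrogenase, read 6.24, 5.74, 6.09 and 6.26 under vehicle and 7.18, 7.92, 7.90 and 7.81 under dexamethasone (1.62, SE 0.22, adjusted p 0.00045). Ppp1r3c, which targets protein phosphatase to glycogen, rose from 4.97 to 5.53 to 7.01 to 7.71 (2.10, SE 0.23), and its other probe gave 2.53. Pfkfb1 and Pfkfb4, which set fructose 2,6-bisphosphate, rose 1.61- and 1.39-fold, and the transporters Slc2a1 and Slc2a3 1.49- and 1.68-fold. The insulin-responsive transporter Slc2a4 read 7.15 to 7.38 and 7.12 to 7.42 (0.09, SE 0.10, adjusted p 0.60).

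Of 33 lipid droplet, lipase and uncoupling genes, 7 rose and 1 fell (3 and 0 with slide as a fixed block), and the list median was 0.44. Plin4 and Plin5, coat proteins of lipid droplets, rose 2.23-fold (1.16, SE 0.12) and 4.02-fold (2.01, SE 0.32). Ucp3, the muscle uncoupling protein, rose from 2.13, 1.63, 2.14 and 1.80 to 3.23, 4.14, 3.84 and 3.66 (1.79, SE 0.19, adjusted p 7.1e-05). G0s2, an inhibitor of adipose triglyceride lipase, rose from 0.21 to 0.89 to 2.17 to 2.70 (1.94, SE 0.21). Angptl4, a secreted inhibitor of lipoprotein lipase, rose 4.29-fold with its highest value on replicate 2 (2.10, SE 0.37), and Lpin1, a phosphatidate phosphatase and coactivator, 1.62-fold (0.70, SE 0.16). Gpam, the first enzyme of glycerolipid synthesis, fell by 0.44 (SE 0.11).

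Of 42 fatty acid uptake and oxidation genes, 10 rose and none fell, and 36 of 42 had a positive change (list median 0.26). Acot1, a cytosolic acyl-CoA thioesterase, moved furthest, from -0.47, -1.80, -1.92 and -1.03 to 1.09, 3.03, 1.55 and 1.85 (3.19, SE 0.44, adjusted p 0.00044). Its mitochondrial relative Acot2 rose 2.39-fold (1.26, SE 0.31) with overlapping groups; the 2 are close in sequence. Cd36, the fatty acid translocase, rose 1.82-fold (0.86, SE 0.23), and the acyl-CoA synthetases Acsl3, Acsl1 and Acsl6 by 0.85, 0.54 and 0.38, although the other Acsl6 probe gave -0.52. Slc25a20, the mitochondrial acylcarnitine carrier, rose from 1.65 to 2.22 to 2.51 to 2.71 (0.63, SE 0.15, adjusted p 0.019). Eci2 and Acadm, enzymes of beta-oxidation, rose by 0.78 and 0.39. The fixed slide block left 2 of the 42 higher. Of 46 respiratory chain and citric acid cycle genes only 2 passed, as higher, against 5.05% of all features. They were Sdha (0.41, SE 0.12) and Ndufa9 (0.35, SE 0.10), neither of which passed with slide as a fixed block, and the list median was 0.07.

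Of 32 nuclear receptors and coactivators of metabolism, 5 rose and 6 fell, against 5.05% and 5.65% of all features (median -0.06, which turned to 0.18 with median scaling). None was higher and 2 were lower with slide as a fixed block. Ppara, the fatty acid receptor, rose from 1.34, 0.55, -0.05 and 1.31 to 2.35, 2.46, 2.21 and 2.24 (1.53, SE 0.32, adjusted p 0.0079); the treated values were alike and the vehicle values spread. The coactivators Ppargc1a and Ppargc1b fell by 0.85 (SE 0.11) and 1.15 (SE 0.15). For Ppargc1a the values were 2.31, 2.02, 1.99 and 2.18 under vehicle and 1.14, 1.61, 1.12 and 1.24 under dexamethasone. Rarb, a retinoic acid receptor, fell by 1.41 (SE 0.15), Esr1 by 0.60 (SE 0.10) and Thra by 0.56 (SE 0.12). Nrip1, a corepressor, rose by 0.85 (SE 0.20).

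Among 44 genes of amino acid breakdown, 11 rose and 1 fell, and 36 had a positive change (median 0.25). Cth, cystathionine gamma-lyase, rose from -0.64, -1.04, -1.41 and -0.72 to 0.39, 0.83, 0.43 and 0.66 (1.53, SE 0.21, adjusted p 0.00045). Glul, glutamine synthetase, rose from 5.71 to 6.15 to 6.79 to 7.09 (0.98, SE 0.17, adjusted p 0.0026). Bcat2, the mitochondrial branched-chain transaminase, read 0.57 to 0.89 under vehicle and 1.26 to 2.09 under dexamethasone (0.80, SE 0.19, adjusted p 0.018), and its other probes gave 0.10 and 0.69. Prodh, proline dehydrogenase, Oat, ornithine aminotransferase, and Gpt, alanine aminotransferase, rose 1.60-, 1.52- and 1.47-fold. Aldh6a1, Acadsb, Acad8 and Mccc2, enzymes of the distal branched-chain pathway, rose by 0.58, 0.53, 0.52 and 0.39, although the other Mccc2 probe gave -0.16. With slide as a fixed block 2 of the 44 were higher and none lower. Bcat1, the cytosolic transaminase, fell by 1.28 (SE 0.38, adjusted p 0.047), with overlapping groups and 2 of 4 treated arrays above background.

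Of 32 amino acid transporters, 8 rose and 2 fell (median 0.14), and with slide as a fixed block 3 were higher and none lower. Slc7a8, a neutral amino acid exchanger, rose from -0.05, 0.03, 0.78 and 0.29 to 2.64, 2.12, 1.79 and 2.16 (1.92, SE 0.19, adjusted p 3.7e-05). Slc43a1, a transporter of large neutral amino acids, rose from 1.53 to 1.77 to 2.64, 4.56, 3.21 and 3.53 (1.83, SE 0.29), Slc38a3, which carries glutamine, from 2.19 to 2.65 to 3.36 to 3.82 (1.16, SE 0.14), and Slc25a22, the mitochondrial glutamate carrier, 2.79-fold (1.48, SE 0.26). Slc7a2, Slc3a2, Slc7a6 and Slc38a2 rose by 1.03, 0.69, 0.68 and 0.84, and the other probe gave 0.17 for Slc3a2, 0.14 for Slc7a6 and 0.27 for Slc38a2. Slc6a6, the taurine transporter, and Slc6a9, a glycine transporter, fell by 0.63 (SE 0.09) and 0.71 (SE 0.16). In the polyamine and arginine list, 1 of 20 genes passed, as lower, against 5.65% of all features. Nos2, inducible nitric oxide synthase, was lower by 0.87 (SE 0.21) and above background on 2 of 4 treated arrays. With normexp background the sign of Nos2 reversed, without passing. Odc1 (0.14, SE 0.18, adjusted p 0.67) and Smox (-0.53, SE 0.31, adjusted p 0.32) did not pass.

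Of 24 core clock and clock output genes, 2 rose and 6 fell (median -0.04, which turned to 0.20 with median scaling). The fixed slide block left 2 higher and 1 lower. Dbp, an albumin D-site binding factor, read 5.92, 6.41, 6.35 and 6.31 under vehicle and 5.22, 4.71, 5.24 and 4.86 under dexamethasone (-1.24, SE 0.15, adjusted p 0.00016). Its relative Hlf fell by 0.49 (SE 0.08), while Nfil3, a repressor of the same sites, rose 2.86-fold (1.51, SE 0.18). Arntl, the core activator BMAL1, rose from -0.25 to 0.14 to 0.90 to 1.20 (1.08, SE 0.16, adjusted p 0.00088). Per3 and Bhlhe41 fell by 1.10 each (SE 0.25 and 0.18), and Per2 gave -0.04 (SE 0.14, adjusted p 0.91) with the brightest probe and -0.58 with the other. Arntl2 was not well above background on any treated array and was at least 1.86-fold lower, but its sign reversed, without passing, with normexp background.

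**Figure D3:**
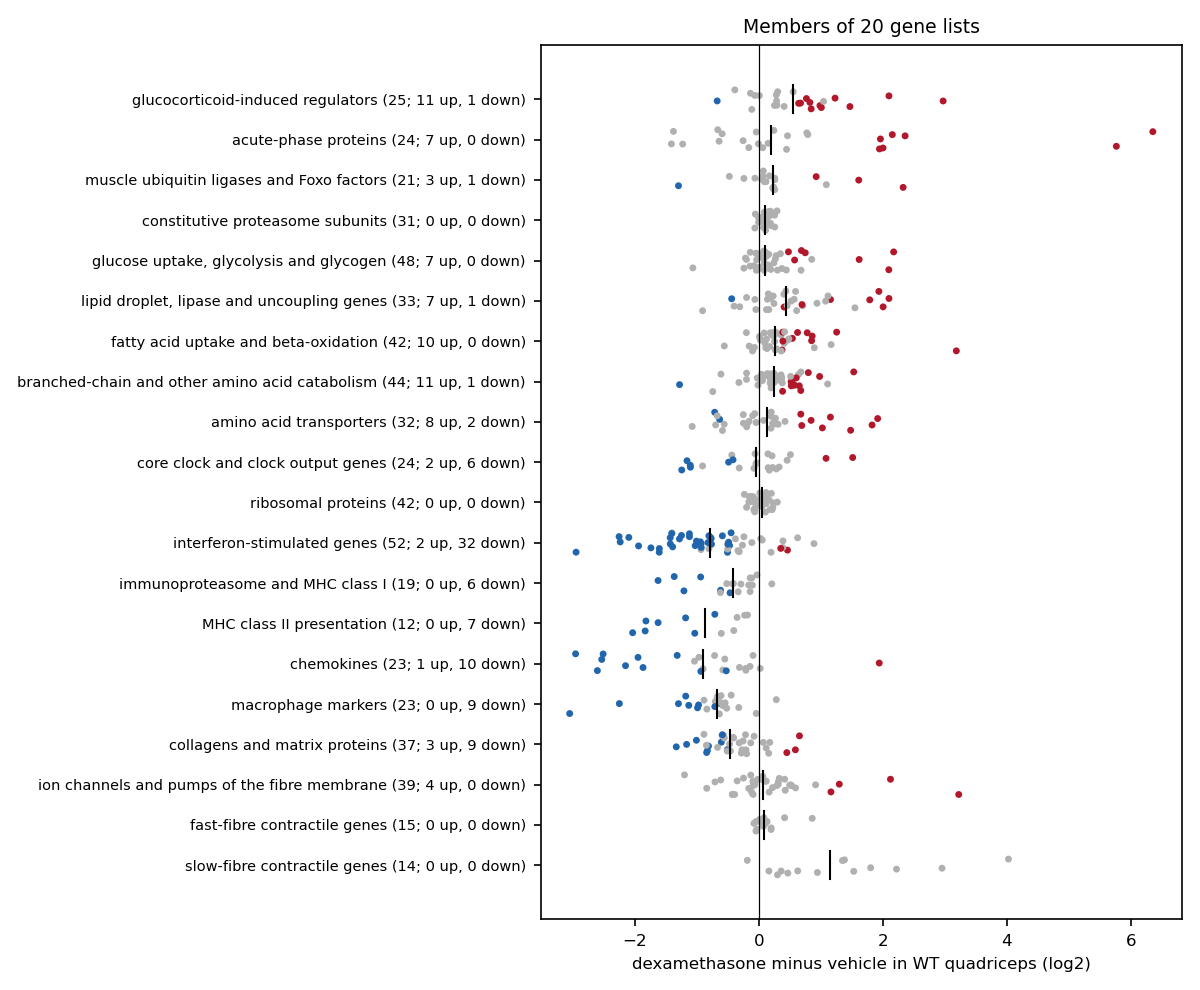
Change with dexamethasone in WT quadriceps (log2, 4 arrays against 4) of the measured members of 20 gene lists; each point is a gene, red where it passed as higher, blue where it passed as lower and grey where it did not pass, and the black tick is the list median. Interferon-stimulated genes lie mostly below 0 (32 of 52 lower), proteasome subunits and ribosomal proteins lie close to 0 with none passing, and the slow-fibre genes are spread widely with none passing.

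Of 52 measured interferon-stimulated genes, 32 fell and 2 rose, against 5.65% of all features called lower, and the list median was -0.79 (-0.55 with median scaling). On single treated arrays the list median lay 0.55 to 0.88 below the vehicle mean, and the 4 vehicle arrays lay between -0.04 and 0.03. With slide as a fixed block 14 of the 52 were lower and none higher, and without the 2 arrays with high neutrophil markers, dexamethasone replicate 3 of WT and replicate 1 of KO, 29 were lower and 2 higher. Gbp4, a guanylate-binding GTPase, read -2.14, -2.45, -2.26 and -2.76 under vehicle and -5.43, -5.41, -5.02 and -5.52 under dexamethasone, with 3 of 4 treated arrays above background (-2.94, SE 0.36, adjusted p 0.00019). Gbp3 fell by 2.25 (SE 0.31) and Gbp2 by 1.40 (SE 0.18); the Gbp family has close copies. Ifit1, which binds viral RNA, read -2.97, -2.96, -2.95 and -3.28 and then -4.69, -4.33, -4.95 and -4.60 (-1.60, SE 0.25, adjusted p 0.0013). Zbp1, a nucleic acid sensor, fell by 2.09 (SE 0.28), Oasl2 by 1.74 (SE 0.23), Rtp4 by 1.43 (SE 0.15) and Xaf1 by 1.12 (SE 0.14).

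Signalling factors of the pathway were also lower. Stat2, Irf9 and Irf7 fell by 0.94, 0.50 and 1.02, and Irf1 by 0.49 (adjusted p 0.037). Socs1, the feedback inhibitor of this pathway, fell by 2.21 (SE 0.56, adjusted p 0.022). The exceptions in the list were Irf2, a repressor (0.46, SE 0.12), and Trim25 (0.35, SE 0.08).

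The interferon-stimulated response element was searched in the same windows as GAAA, any 2 bases and GAAA, on both strands. It was present in 476 of 12110 genes (3.93%), in 57 of 689 that were lower (8.27%), in 27 of 738 that were higher (3.66%) and in 14 of the 24 lower interferon-list genes with a window (58.3%). The list was drawn up from genes known to answer interferon, so its share is not independent of the element. The stretches below show the element, in capitals on the gene's strand 5′ to 3′, in Tgtp1, Ifit1, Oas1a and Gbp2, whose changes were -1.94, -1.60, -1.43 and -1.40. Where matches overlap or face the other strand the capitals read as TTTC pairs or run longer.
Tgtp1: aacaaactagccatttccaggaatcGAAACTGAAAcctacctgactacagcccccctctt
Ifit1: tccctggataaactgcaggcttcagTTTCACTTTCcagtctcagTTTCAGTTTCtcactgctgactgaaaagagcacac
Oas1a: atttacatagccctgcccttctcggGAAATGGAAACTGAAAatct
Gbp2: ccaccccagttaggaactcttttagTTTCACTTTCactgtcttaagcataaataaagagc
In GRCm38.p6 these are chr11:48992289-48992348 (-), chr19:34640760-34640838 (+), chr5:120907526-120907570 (-) and chr3:142620579-142620638 (+). On both strands, the NF-kB site (GGGA, any base, TT, any base, CC) was present in 1.45% of all genes with a window, 2.18% of the lower and 1.76% of the higher ones. The E-box CACGTG was present in 10.5%, 10.4% and 9.89%.

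In the immunoproteasome and MHC class I list 6 of 19 fell and none rose (median -0.41), and with slide as a fixed block 3 were lower. Psmb9, an inducible proteasome subunit, read 0.38, 0.55, 0.31 and 0.38 under vehicle and -1.10, -1.33, -0.62 and -1.82 under dexamethasone (-1.62, SE 0.23, adjusted p 0.00049). Psmb8 fell by 1.36 (SE 0.17), Psmb10 by 0.61 (SE 0.09) and the peptide transporter Tap1 by 1.21 (SE 0.25). In the class II list 7 of 12 fell, and all 12 had a negative change (median -0.87). H2-Aa, a class II alpha chain, read 0.48, 0.71, 0.55 and 0.24 under vehicle and -1.01, -1.65, -1.22 and -1.45 under dexamethasone (-1.83, SE 0.27), and its other probe gave -1.62. Ciita, the master activator of class II genes, fell by 2.03 (SE 0.48, adjusted p 0.015), H2-Ab1 by 1.82 (SE 0.25) and the invariant chain Cd74 by 1.18 (SE 0.24).

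Of 23 chemokines, 10 fell and 1 rose (median -0.90). Ccl2, which attracts monocytes, read -0.77, -0.61, -2.66 and -1.35 under vehicle and -3.37, -4.22, -4.06 and -4.15 under dexamethasone (-2.60, SE 0.47, adjusted p 0.0033). Cxcl10 was not well above background on any treated array and was at least 5.43-fold lower (adjusted p 0.038). Ccl7 fell by 2.95 (SE 0.55; 2 of 4 treated arrays above background), Ccl24 by 1.95 (SE 0.31), Cxcl9 by 1.86 (SE 0.36) and Cxcl16 by 1.31 (SE 0.18). Cxcl13, a B-cell attractant, rose 3.84-fold, with overlapping groups (1.94, SE 0.48, adjusted p 0.019). Il6 read -4.48 to -3.68 and -5.06 to -4.03 (-0.36, SE 0.27, adjusted p 0.44).

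Of 47 NF-kB, cytokine and receptor genes, 4 rose and 6 fell, against 5.05% and 5.65% of all features (median -0.01), and with slide as a fixed block 1 was higher and 3 lower. Nfkbia, the inhibitor of NF-kB, read 3.83, 3.84, 4.17 and 3.94 under vehicle and 5.05, 4.90, 4.54 and 4.37 under dexamethasone, a 1.70-fold rise (0.77, SE 0.18, adjusted p 0.015). Osmr, a cytokine receptor, rose by 0.68 (SE 0.12), and the cytokines Il33, Il18 and Csf1 fell by 1.26, 0.75 and 0.65. Of 23 toll-like receptor and inflammasome genes 2 rose and 3 fell, against 5.05% and 5.65% of all features (0 and 2 with slide as a fixed block). Myd88 (0.52) and Irak3 (0.48) were higher, and Casp4, Gsdmd and Tlr2 fell by 0.65, 0.54 and 0.65. Of 23 complement genes 4 fell, among them C1qc by 0.99 (SE 0.21), and 1 rose, against 5.65% and 5.05% of all features. No complement gene passed with slide as a fixed block. In the prostaglandin list 5 of 31 rose and 3 fell (2 and 0 with slide as a fixed block). Ptgds, prostaglandin D synthase, read -4.83, -3.11, -3.07 and -4.19 under vehicle and 0.18, -1.55, -0.14 and -0.51 under dexamethasone, a 9.81-fold rise (3.29, SE 0.50, adjusted p 0.00091), while the phospholipase Pla2g4a fell by 0.96 (SE 0.20).

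Markers of macrophages moved in the same direction as these immune genes. Of 23 macrophage markers, 9 fell and none rose (median -0.67), and 22 of 23 had a negative change. Aif1 read -0.51, -0.25, -0.95 and -1.10 under vehicle and -4.39, -4.26, -2.67 and -3.68 under dexamethasone (-3.05, SE 0.40, adjusted p 0.00034). Adgre1, the F4/80 antigen, read -0.96, -0.40, -0.60 and -0.92 and then -1.70, -2.20, -1.87 and -1.63 (-1.13, SE 0.20, adjusted p 0.0027). Fcgr1, an Fc receptor, fell by 2.25 (SE 0.31) and Csf1r, the macrophage growth factor receptor, by 0.61 (SE 0.16). The array medians of the list were -0.25 to 0.27 under vehicle and -0.96 to -0.47 under dexamethasone, and the part of macrophages in the interferon, class II and chemokine values was not tested. With slide as a fixed block 1 macrophage marker, 3 class II genes and 4 chemokines were lower. In bulk tissue fewer cells of a type and less RNA per cell cannot be told apart. Of 16 lymphocyte markers, 1 passed, as lower, against 5.65% of all features. Cd247, the zeta chain of the T-cell receptor complex, read -2.22, -2.17, -2.34 and -2.42 under vehicle and -4.55, -3.57, -4.31 and -4.34 under dexamethasone (-1.91, SE 0.17, adjusted p 2e-05).

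**Figure D4:**
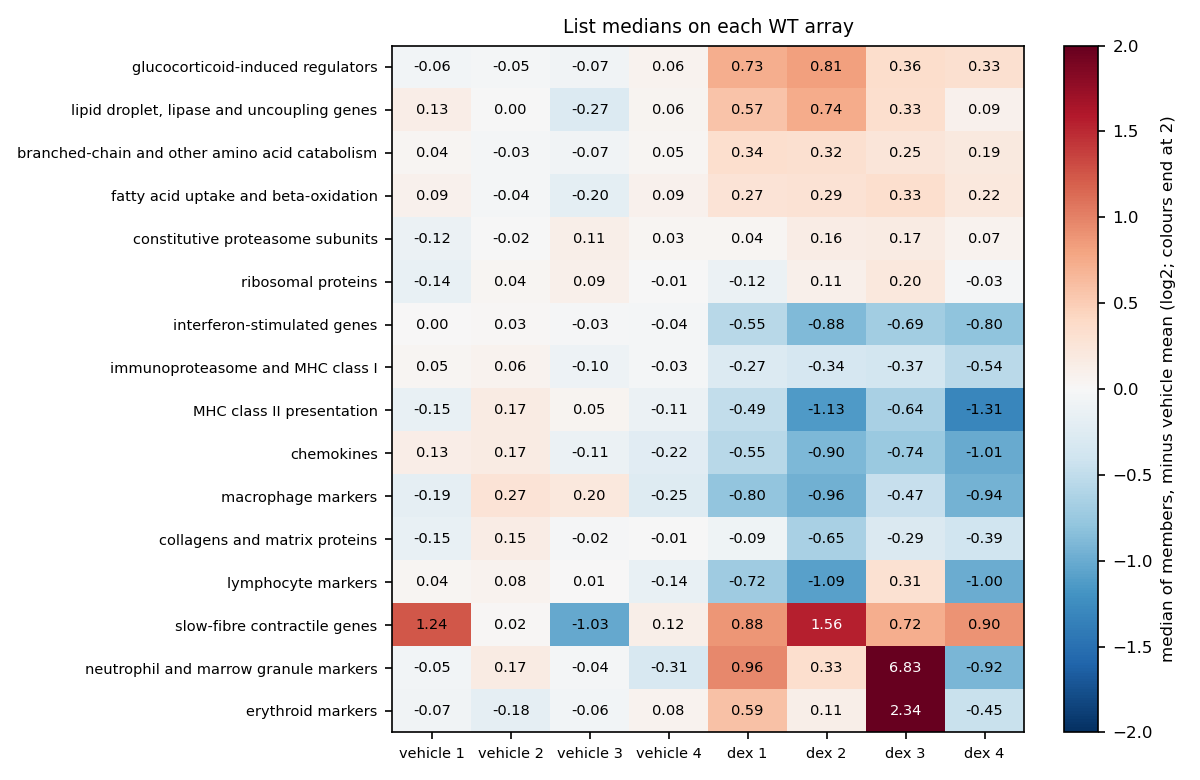
Median over the measured members of 16 gene lists on each of the 8 WT arrays, as the log2 difference from the mean of the vehicle arrays; red is above and blue below it, and colours end at 2. The interferon, class I, class II, chemokine and macrophage medians are below 0 on all 4 dexamethasone arrays, whereas the neutrophil median is 6.83 on dexamethasone replicate 3 and at most 0.96 on the other 7 arrays, and the slow-fibre median varies in both groups.

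Of 37 collagen and matrix genes, 9 fell and 3 rose (median -0.46), and with slide as a fixed block 4 were lower and none higher. Lum, the collagen-binding proteoglycan lumican, read 2.75 to 3.30 under vehicle and 1.89, 1.75, 1.54 and 2.10 under dexamethasone (-1.16, SE 0.16, adjusted p 0.00043). Loxl2, a cross-linking enzyme, fell by 1.33 (SE 0.20), Col15a1 by 1.00 (SE 0.16) and Nid2 by 0.84 (SE 0.15). The basement membrane collagens Col4a1, Col4a2 and Col4a3 were the members that rose, by 0.66, 0.59 and 0.45. Col4a1 went from 2.65 to 3.28 to 3.53 to 3.91. Of 31 matrix proteases and inhibitors 2 rose and 4 fell, against 5.05% and 5.65% of all features (2 and 3 with slide as a fixed block). Adamts9, a secreted metalloprotease, rose from -1.34, -0.79, -0.76 and -0.69 to 0.96, 0.79, 0.80 and 0.60 (1.68, SE 0.17, adjusted p 4.1e-05), whereas Mmp23 and Timp2 fell by 1.01 and 0.72. Of 16 fibroblast and tendon markers, Lum and Thy1 fell, against 5.65% of all features called lower, and the list median of -0.22 turned to 0.02 with median scaling.

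Of 60 TGF-beta, BMP and Wnt genes, 9 fell and 4 rose, against 5.65% and 5.05% of all features, and with slide as a fixed block 1 was lower and 1 higher. The secreted Wnt inhibitor Sfrp4 read 0.18, 0.48, 0.98 and 0.14 under vehicle and -2.16 to -1.11 under dexamethasone (-2.05, SE 0.30, adjusted p 0.00079), and Sfrp1 and Sfrp2 fell by 1.00 (SE 0.18) and 1.14 (SE 0.28). Fstl1, a follistatin-like protein, fell by 1.28 (SE 0.18), and the receptors Acvr1 and Acvr2b by 0.60 and 0.65. Bmp6 rose by 0.81 (SE 0.12), although its other probe gave -0.60, and Smad5 by 0.52 (SE 0.08). Among 44 endothelial genes 2 rose and 4 fell, against 5.05% and 5.65% of all features (1 and 3 with slide as a fixed block). Aplnr, the apelin receptor, fell by 1.88 (SE 0.24), although its other probe gave 0.05, and Icam2, Vegfc and Ptprb were also lower. Notch4 and Thbs1 rose by 1.06 (SE 0.14) and 1.28 (SE 0.30), although both other Thbs1 probes lay at 0.04 or below. The brightest Vegfa probe did not pass (-0.18, SE 0.13, adjusted p 0.42), and the others gave -0.17, -0.86 and -0.78. Of 23 pericyte and smooth muscle genes 4 fell, Anpep by 1.20 (SE 0.14) and Notch3 by 0.80 (SE 0.10) among them, and Myh11 rose by 0.74 (SE 0.15); with slide as a fixed block 2 were lower and none higher.

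None of 15 fast-fibre genes passed (median 0.08, range -0.08 to 0.86). None of 14 slow-fibre genes passed either, although their median was 1.15; Ankrd2 came closest (1.80, SE 0.57, adjusted p 0.060). Of 39 ion channels and pumps, 4 rose and none fell, against 5.05% and 5.65% of all features (2 higher with slide as a fixed block). Kcnk1, a potassium leak channel, read -3.41, -3.69, -3.46 and -3.29 under vehicle and 0.00, -0.33, -0.11 and -0.52 under dexamethasone (3.22, SE 0.32, adjusted p 4.8e-05). Kcnj12, an inward rectifier, rose 2.24-fold (1.16, SE 0.14), and Abcc8, the sulfonylurea receptor, 2.46-fold (1.30, SE 0.35). Scn3b, a sodium channel beta subunit, was not well above background on any vehicle array and was at least 3.22-fold higher (adjusted p 0.0014). Musk, the receptor kinase of the neuromuscular junction, rose from -3.33, -2.87, -2.88 and -2.98 to -1.73, -0.41, -1.38 and -1.95 (1.65, SE 0.29, adjusted p 0.0023); Sema3a, a repulsive axon guidance signal, was the 1 other of 17 junction genes that passed, as lower, and the list median was -0.37.

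Of 25 myogenic and satellite cell genes, 1 rose and 4 fell, against 5.05% and 5.65% of all features (1 and 2 with slide as a fixed block). Myf6, the myogenic factor MRF4, rose by 0.78 (SE 0.12), and Met, Hdac4, Mef2c and Tcf4 fell by 0.91, 0.86, 0.56 and 0.41. Of 28 dystrophin-associated genes 4 rose and 2 fell, against 5.05% and 5.65% of all features (1 higher and 0 lower with slide as a fixed block). Dtna rose by 0.71 (SE 0.10), Vcl by 0.53 and Dmd by 0.40, and Sntb2 and Cav3 fell by 0.77 and 0.32. Among the genes named as changed, the groups also overlapped for Gstt2, Ndufa9, Sfrp2, Slc2a1 and Slc38a2. Of 30 heat shock genes 3 rose and 2 fell, against 5.05% and 5.65% of all features (1 higher and 0 lower with slide as a fixed block). Hspb1 rose by 0.81 (SE 0.12), Hspa2 by 1.04 (SE 0.20) and Hspb7 by 1.41 (SE 0.42), and Hspb3 and Hspb2 fell by 0.57 and 0.30. In the glutathione list, 1 of 43 rose and 4 fell, against 5.05% and 5.65% of all features (0 and 1 with slide as a fixed block). Gstt1 read -0.91, -0.61, -0.57 and -0.72 under vehicle and -1.72, -1.73, -1.57 and -1.87 under dexamethasone (-1.02, SE 0.11, adjusted p 9.9e-05), Gstt3 and Gstt2 fell by 0.38 and 0.66, and Nfe2l2, the antioxidant factor NRF2, rose by 0.68 (SE 0.11). Of 35 genes of the ATF4 and unfolded protein responses 4 rose, among them Mthfd2 by 0.80 and Atf4 by 0.46, and 3 fell, against 5.05% and 5.65% of all features. None of the 35 passed with slide as a fixed block.

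The most reproducible falls by the moderated t came from varied classes. Kazn, a desmosome-associated protein, read -2.04, -1.85, -2.16 and -2.20 under vehicle and -4.09, -3.49, -3.73 and -3.49 under dexamethasone (-1.64, SE 0.14, adjusted p 1.7e-05), and its other probes gave -0.79 and -1.28. Dnmt3a, a de novo DNA methyltransferase, read 1.37, 1.47, 1.36 and 1.27 and then -0.44, -0.46, -0.17 and -0.48 (-1.76, SE 0.15, adjusted p 1.9e-05), but its other probes gave only -0.05 and -0.63. Tnrc18, a trinucleotide repeat protein, read 0.01, 0.11, -0.03 and 0.00 and then -1.29, -1.12, -0.86 and -0.99 (-1.09, SE 0.11). Zmynd15, a zinc-finger repressor, Xpnpep2, a membrane aminopeptidase, and C1qtnf2, a C1q/TNF-related secreted protein, fell 3.80-, 3.90- and 3.41-fold. The glycan enzymes Csgalnact1 and B3gnt9 fell by 1.30 (SE 0.11) and 1.07 (SE 0.09). Itga11, a collagen-binding integrin, Fgf18, a growth factor, and Dnm1, dynamin 1, fell by 1.88 (SE 0.20), 1.35 (SE 0.14) and 1.13 (SE 0.13).

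The KLF15 KO arrays allow the WT values to be set beside a second group of animals with its own controls. In KO muscle 2579 features (10.2%) changed with dexamethasone. Of the 2694 WT calls, 1355 were called in the same direction in KO, which is 50.3% of the WT and 52.5% of the KO calls, and 4 were called in the opposite direction. The sign was shared in 89.3% of the WT calls and in 59.1% of all features. All 30 genes ranked by t had the same sign in both genotypes and 29 passed in KO. For example, the change of Prom1 was 2.09 in WT and 2.16 in KO, that of Lcn2 6.35 and 6.42, that of Foxo1 2.33 and 2.37, and that of Rtp4 -1.43 and -1.38.

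A test of the difference between the genotypes called no feature (limma, smallest adjusted p 0.092), although 2892 had an unadjusted p under 0.05. Arrays of a slide had an estimated correlation of 0.57. With slide as a random block the test called 118 features with a more positive and 192 with a more negative change in WT. The authors' deposited log2 values gave 1 and 0, and probes above background on all 8 WT arrays 0 and 5. The WT genes that passed and had the smallest interaction p were Spop (-0.82 in WT, 0.07 in KO), Slx4ip (-0.63, 0.77; its other probe gave 0.41 in WT), Itih5 (-0.75, 0.09), Cth (1.53, -0.34), Tnrc18 (-1.09, -0.25) and Nf1 (-0.60, 0.11). Their adjusted interaction p ranged from 0.092 to 0.17. Acot1 (3.19 in WT, 0.83 in KO, adjusted interaction p 0.21), G0s2 (1.94, 0.45, 0.17), Slc38a3 (1.16, 0.19, 0.17) and Bcat2 (0.80, -0.23, 0.22) also gave unequal values that did not pass.

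**Figure D5:**
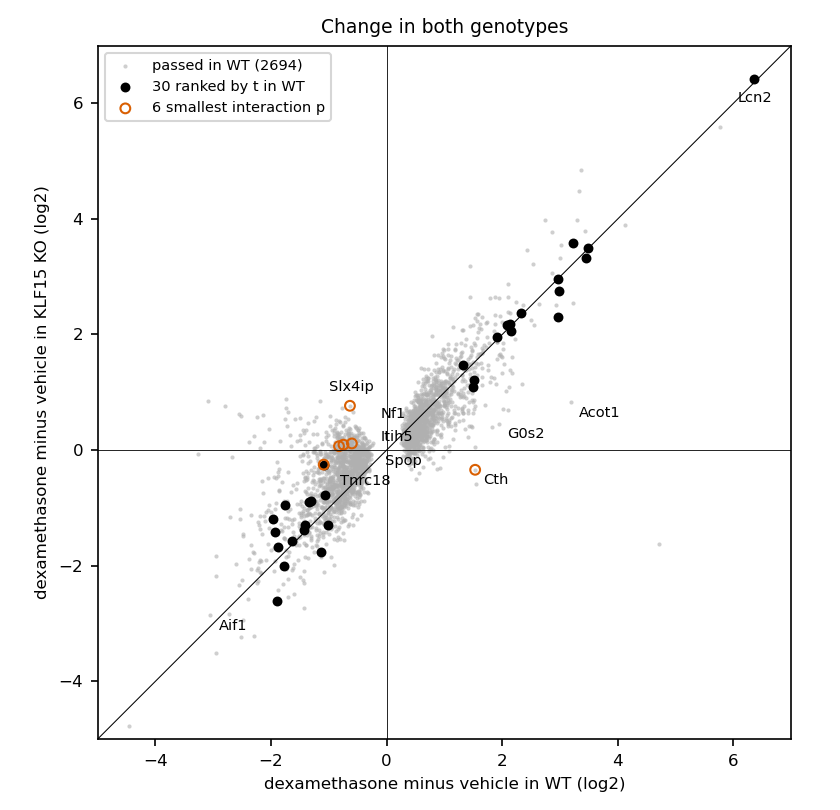
Change with dexamethasone in KLF15 KO muscle against the change in WT muscle (log2, each from 4 arrays against 4) for the 2694 features that passed in WT. Black points are the 30 genes ranked by t in WT, orange rings the 6 with the smallest interaction p, and the diagonal marks equal change. Of the 30 black points 29 also passed in KO, with an estimate of the spread shared by both genotypes. No ring passed the interaction test after adjustment.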

How the data were processed

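Total RNA of 16 quadriceps samples was amplified as cDNA, Cy3-labelled and hybridised to single-colour Agilent 4x44K arrays, per the labels' protocols. The deposited scanner files hold the processed spot intensity (gProcessedSignal) written by Feature Extraction, per the file headers. The deposited series table holds log2 values made by the authors, with no centring stated per the labels, and served as an alternative. The log2 of the intensity minus each array's 75th percentile over noncontrol probes was taken, outlier-flagged spots were set to missing, and spots of a probe were averaged. Of 41174 probes, 32397 passed the filter, well above background on 4 or more of the 16 arrays. Of all probes, 24844 were named through RefSeq accessions; the brightest probe stood for a gene, which left 25189 features, 15175 of them named. Other probes of a named gene are given where their sign or size differed clearly, and for some genes where they were alike.

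All 16 arrays were fitted with 4 group means (limma 3.58.1, R 4.3.3; Benjamini-Hochberg over all features, adjusted p under 0.05, two-sided). Every adjusted p in the text comes from this fit, which holds no slide term and was also tested on simulated data. At-least folds set the mean of the brighter group against the lowest level well above background. The replicates are described as separate animals, and each has 1 array; arrays give no read depth, and their number limits the precision.

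Genes were named by rule: the 15 highest and 15 lowest moderated t among genes above background on all 8 WT arrays that passed without overlap of the groups; up to 6 with the smallest p per list; 2 of each list in which none passed; standard glucocorticoid and muscle genes; and 6 with the smallest interaction p. Further list members and the genes with promoter matches were named after their values were seen. Some genes are not reported here. The members and the 54 gene lists were chosen with earlier results of these data known, so no list count is independent evidence. Lists were described by counts and medians, without a set test. Same replicate numbers did not pair the samples. The alternatives were other scalings, normexp background, the deposited table, other filters, slide or replicate number as a block, single arrays left out, and the mean of probes.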

Additional observations from a re-analysis of the deposited data

Results flagged for a closer look

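Of 649 groups of 4 array values examined for the genes and lists of the text, 35 (5.39%) held 1 array far from the other 3, with a gap above 0.829 of the group's range (Dixon's criterion). Chance gives such a gap in about 1 in 20 groups. Each value below is the level on the array that stood apart, with the range of the other 3.

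On dexamethasone replicate 1, the level of Pdk4 was 7.18 against 7.81 to 7.92, that of Pik3r1 was 2.55 against 1.80 to 1.85, that of Slx4ip was -3.29 against -2.91 to -2.84, that of Tgm2 was 5.44 against 5.15 to 5.18. On dexamethasone replicate 2, the level of Cd36 was 4.18 against 3.85 to 3.89, that of Foxo6 was 0.87 against 1.81 to 1.92, that of Gabarapl1 was 5.99 against 5.43 to 5.49, that of Irs1 was 1.42 against 2.44 to 2.49, that of Sesn1 was 5.71 against 4.51 to 4.66. On dexamethasone replicate 2 the median of ribosome biogenesis and nucleolar genes, as the difference from the vehicle mean, was 0.30 against 0.06 to 0.08. On dexamethasone replicate 3, the level of C1qtnf2 was -2.10 against -2.65 to -2.56, that of Casp4 was -1.39 against -1.53 to -1.51, that of Ckm was 8.58 against 8.14 to 8.15, that of Dnmt3a was -0.17 against -0.48 to -0.44, that of Map3k6 was 4.07 against 4.31 to 4.34, that of Tsc22d3 was 4.75 against 5.24 to 5.28. On dexamethasone replicate 3 the median of proliferation genes, as the difference from the vehicle mean, was 1.21 against -0.15 to 0.03. On dexamethasone replicate 4, the level of Cxcl10 was -5.55 against -6.44 to -6.37, that of G0s2 was 2.17 against 2.64 to 2.70, that of Ndufa9 was 5.95 against 6.21 to 6.24, that of Sfrp1 was -1.89 against -2.13 to -2.11, that of Sntb2 was -1.69 against -2.35 to -2.26. On dexamethasone replicate 4 the median of polyamine and arginine genes, as the difference from the vehicle mean, was -0.26 against -0.09 to -0.07. On dexamethasone replicate 4 the median of myogenic factors and satellite cell genes, as the difference from the vehicle mean, was -0.13 against -0.18 to -0.18. On vehicle replicate 1, the level of Adamts9 was -1.34 against -0.79 to -0.69. On vehicle replicate 1 the median of neuromuscular junction genes, as the difference from the vehicle mean, was -0.20 against 0.03 to 0.07. On vehicle replicate 2, the level of Acsl6 was 1.30 against 1.43 to 1.45, that of Kcnj12 was 2.36 against 2.55 to 2.58. On vehicle replicate 3, the level of Btg2 was 0.08 against 0.43 to 0.47, that of Gpt was 3.02 against 3.33 to 3.35, that of Gstt2 was -0.04 against 0.38 to 0.43, that of Psmb2 was 2.16 against 1.92 to 1.95, that of Slc2a4 was 7.38 against 7.15 to 7.18. On vehicle replicate 4, the level of Ifit1 was -3.28 against -2.97 to -2.95, that of Map3k6 was 2.37 against 2.03 to 2.05.

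No gene of the text differed between WT and KO at an adjusted interaction p under 0.05.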

How the results depend on the processing

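The number of WT features higher with dexamethasone (1272) became 642 with only the 8 WT arrays, 375 with slide as a fixed block and 1950 with slide as a random block, and ranged from 800 to 1116 with single arrays left out. The number lower (1422) became 395 with median scaling, 750 with normexp background, 795 with only the 8 WT arrays and 392 with the fixed slide block, and ranged from 832 to 1505 with single arrays left out. Both were lowest without vehicle replicate 2. The KO count (2579) became 1438 with median scaling and 5080 with the random slide block, and ranged from 2271 to 2707. The interaction count (0) became 1 with normexp background, 1 with the deposited table, 5 with probes above background on all 8 WT arrays and 310 with the random slide block, and ranged from 0 to 1 with single arrays left out. The fit with only the 8 WT arrays gives neither of these. Apart from the default normexp estimate given below, the other settings kept these counts within 1.5 times. Without the 2 arrays with high neutrophil markers, an alternative chosen after seeing the data, 1040 were higher and 1192 lower. Same-numbered replicates did not deviate together (correlations -0.52, 0.29, -0.01 and 0.05), and with the replicate block 975 were higher and 1071 lower. Of 271 genes of the text, 131 lost their call with the fixed slide block, 75 with only the 8 WT arrays and 48 with median scaling. The 271 include genes that did not pass in the main fit and had no call to lose, so the share of calls lost is larger. All 30 genes ranked by t passed with the fixed slide block. They were chosen as the most extreme on the same arrays, so their passing is not independent evidence. Signs reversed, without passing, for Arntl2 (0.14) and Nos2 (0.14) with normexp background and for Acsl6 (-0.071) and Tcf4 (0.27) with the mean of probes. Normexp used the median spot signal, since the mean signal is not among the columns used here. With its default estimate, 117 features were higher and 77 lower. The first percentile of the corrected signal then ran from 56 to 734 units over the arrays. The parameters were therefore taken from negative controls, which gave first percentiles of 52 to 152, and every other normexp value in the text comes from that version. The cause of these shifts was not tested. Signal over background limits 9 named genes that were not above it on all arrays.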
